A study of Mus musculus with 12 samples.

Results

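DNA replication and S phase genes are described here across splenic CD4 T cells with and without a Cre transgene aimed at the transcription factor Ets1. The set holds 39 genes named as members by symbol: 4 for origin recognition and licensing, 6 for the MCM2-7 helicase ring, 4 for helicase activation, 5 for the sliding clamp and its loader, 6 for polymerases and primase, 4 for single-strand binding and Okazaki fragment joining, 5 for nucleotide supply, 2 for maintenance methylation and 3 for control of the step from G1 into S phase. The deposited tables gave 23268 gene features, and all 39 members were among them. Of these, 38 had a feature of their own, and Mcm6 was joined with its neighbour Dars because the tables merged both in some libraries. The filter on low levels (at least 1 FPKM in at least 3 of the 12 libraries) was passed by 38 members and left 11120 features to test. Ccne2, cyclin E2, was listed at 0 in all 12 libraries and was not tested.

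Poly(A)-selected, strand-specific RNA-seq libraries were made from CD4 T cells of the spleens of C57BL/6 mice. Cells carrying CXCR5 and PD-1 on the surface were the T follicular helper (TFH) cells, which help B cells in germinal centres, and cells lacking both were the non-TFH cells. WT mice were Ets1 fl/fl, with both Ets1 alleles floxed and no Cre, and mice labelled knockout (KO) were CD4-cre Ets1 fl/fl, in which the CD4 promoter drives Cre in T cells, so that every group carried the floxed alleles and no group had unmodified Ets1 or Cre alone. This gave 4 groups of 3 libraries, 2 of non-TFH cells (WT and KO) and 2 of TFH cells (WT and KO), and neither age nor immunization was given in the labels. It is not stated in the labels whether replicates were separate mice. The p-values therefore reflect only how these samples vary, and that variation may be technical. Levels are FPKM (fragments per kilobase of transcript and library depth, as the authors deposited them), scaled between libraries by a median ratio. They are given with the standard deviation (SD) over libraries, n = 3 unless stated. Changes are differences of log2(scaled FPKM + 1) from limma with their standard error (SE), and a change was called at a Benjamini-Hochberg adjusted p under 0.05 over all tested features. This scale understates the changes of low genes.

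Replication starts in G1 phase, when the origin recognition complex, CDC6 and CDT1 load pairs of MCM2-7 rings onto DNA. At the start of S phase, CDC45 and the GINS complex turn each ring into an active helicase, polymerase alpha with primase lays down primers, and polymerases delta and epsilon extend them while held by the PCNA clamp. Many of these genes are transcribed by E2F factors once cyclins with their kinase partners, cyclin E among them, have inactivated the RB proteins. Naive T cells express these genes at low levels until activation brings the cells into the cell cycle.

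The E2F recognition letters were therefore looked up in the RefSeq promoter windows (GRCm38.p6, 250 bases before to 50 after each start site). Windows were found for 32 of the 39 members, and Mcm4, Gins1, Gins2, Rfc2, Prim2, Pole and Ccne2 were not matched. Either of the letter strings TTTNGCGC and TTCCCGCC, on either strand, stood in 15 of these 32 members (46.9%), against 3.99% of the 27025 genes in the same table. The 15 were Orc1, Cdt1, Mcm3, Mcm5, Mcm6, Mcm7, Rfc3, Rfc4, Pola1, Prim1, Pold1, Lig1, Rrm1, Uhrf1 and Dnmt1. The 150 bases before the start site are shown for 1 gene from each of 6 role groups, chosen after the matches were seen, to let the position and surroundings of the match be read. Capitals mark matches to either E2F string, and sequences are 5′ to 3′ on the strand of the gene.
Orc1 (chr4:108579304-108579453, plus strand): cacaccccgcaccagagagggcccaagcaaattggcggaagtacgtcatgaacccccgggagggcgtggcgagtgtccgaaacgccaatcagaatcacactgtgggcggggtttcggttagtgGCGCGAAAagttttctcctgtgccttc
Mcm6 (chr1:128359706-128359855, minus strand): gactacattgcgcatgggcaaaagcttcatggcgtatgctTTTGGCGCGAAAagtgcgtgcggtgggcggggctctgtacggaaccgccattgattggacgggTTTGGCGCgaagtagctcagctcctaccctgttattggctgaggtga
Rfc3 (chr5:151651209-151651358, minus strand): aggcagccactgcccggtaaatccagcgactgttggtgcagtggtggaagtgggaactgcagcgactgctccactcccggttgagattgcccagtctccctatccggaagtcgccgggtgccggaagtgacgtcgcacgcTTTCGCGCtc
Prim1 (chr10:128015065-128015214, plus strand): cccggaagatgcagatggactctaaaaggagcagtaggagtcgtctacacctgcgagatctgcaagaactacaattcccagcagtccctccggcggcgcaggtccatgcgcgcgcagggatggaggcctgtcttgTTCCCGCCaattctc
Rrm1 (chr7:102441545-102441694, plus strand): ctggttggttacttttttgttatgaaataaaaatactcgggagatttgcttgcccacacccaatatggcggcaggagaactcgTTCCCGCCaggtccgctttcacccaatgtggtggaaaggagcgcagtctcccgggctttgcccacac
Uhrf1 (chr17:56303187-56303336, plus strand): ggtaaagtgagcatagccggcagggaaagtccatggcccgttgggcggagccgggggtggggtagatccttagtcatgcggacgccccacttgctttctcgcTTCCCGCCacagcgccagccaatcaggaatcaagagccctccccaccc
The Mcm6 window held 3 matches, of which the first 2 overlap on opposite strands. ETS factors bind a core with GGAA, and the ETS string CCGGAAGT was searched in the same way. It stood in 5 of the 32 members (15.6%), Mcm10, Rfc3, Rfc4, Rpa2 and Tyms, against 4.31% of all genes in the table. The CCAAT box stood in 19 members (59.4% against 41.1%), and the string TTTGAA of the cell cycle homology region stood in 4 (12.5% against 20.2%). Such a match is a string of letters and not a measured binding site. Other forms of these sites were not searched, so a window without a match may still hold one.

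Estimated depth was 11.9 to 15.5 M fragments per library, from the authors' confidence bounds, and the tables gave no read counts. The Ets1 transcript was not lower in libraries labelled KO, at 404 to 413 scaled FPKM in WT and 381 to 415 in KO non-TFH libraries, whereas WT TFH libraries gave 171 to 216 and KO TFH libraries 224 to 271. The value covers the whole gene, of which a Cre deletion removes only the floxed exons, and it therefore cannot check the deletion. T cell markers were present in all groups, and Pdcd1 (PD-1) averaged 1.59 and 1.47 in the WT and KO non-TFH groups against 355 and 640 in the WT and KO TFH groups. The table of WT non-TFH replicate 1 stopped partway through chromosome X, which left Pola1 with n = 2 in that group. WT TFH libraries listed 12338 to 25171 unnamed assembled loci and KO TFH libraries 7855 to 10233, and the Y-linked gene Ddx3y stood at 2.22 to 33.6 in WT TFH libraries and at 0 in all 3 KO TFH libraries. Whether these differences bear on the members was not tested. In bulk samples, a change in the number of cells in S phase and a change in these transcripts per cell cannot be told apart.

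In TFH cells, replication genes were more often higher than lower in KO libraries. Of 38 tested members, 20 rose and 1 fell, and 17 were not called. Called features made up 31.0% of all tested features, 15.9% higher and 15.1% lower. The median change of the members was 0.54 log2, against 0.04 over all tested features. Ccne1 rose most among members with no library at 0, followed by Cdc45, Gins1 and Pole, and Cdt1 was the member that fell. Values of the groups did not overlap for 28 members, 27 of them with every measured KO library above every measured WT library (20.1% of tested features) and 1 lower (17.8%). Among the 35 members with no library at 0, 18 rose. The count of 20 was 13 without KO TFH replicate 1, 11 with libraries weighted by their quality and 12 with only both TFH groups in the fit. For alternatives, here and below, the share of all tested features called was not counted. Of the 21 calls, 6 (Ccne1, Cdc45, Gins2, Rfc5, Rpa1 and Rpa2) passed in every alternative run for them.

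In non-TFH cells the same comparison gave 12 members that rose and 0 that fell, with 26 not called, against a background of 20.4% called, 11.8% higher and 8.58% lower. No member was lower at an unadjusted limma p under 0.05 either. With only both non-TFH groups in the fit, 2 members, Mcm4 and Dnmt1, were called lower. The median change of the members was 0.32 log2, against 0.03 over all tested features. The genes with the largest changes were Tk1, E2f1, Rrm2, Pole and Ccne1. Of the 35 members with no library at 0, which leaves out Tk1, 11 rose. Values did not overlap for 21 members that were higher in KO libraries (29.0% of tested features) and for 3 that were lower (23.1%). Of the 12 calls, 8 passed in every alternative run for them. The count was 19 with libraries weighted, where the share of all tested features called was not counted. The TFH and the non-TFH comparisons contrast different libraries. The spread of each gene was fitted over all 12 libraries, however, so the p-values of these comparisons are not independent.

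**Figure D1:**
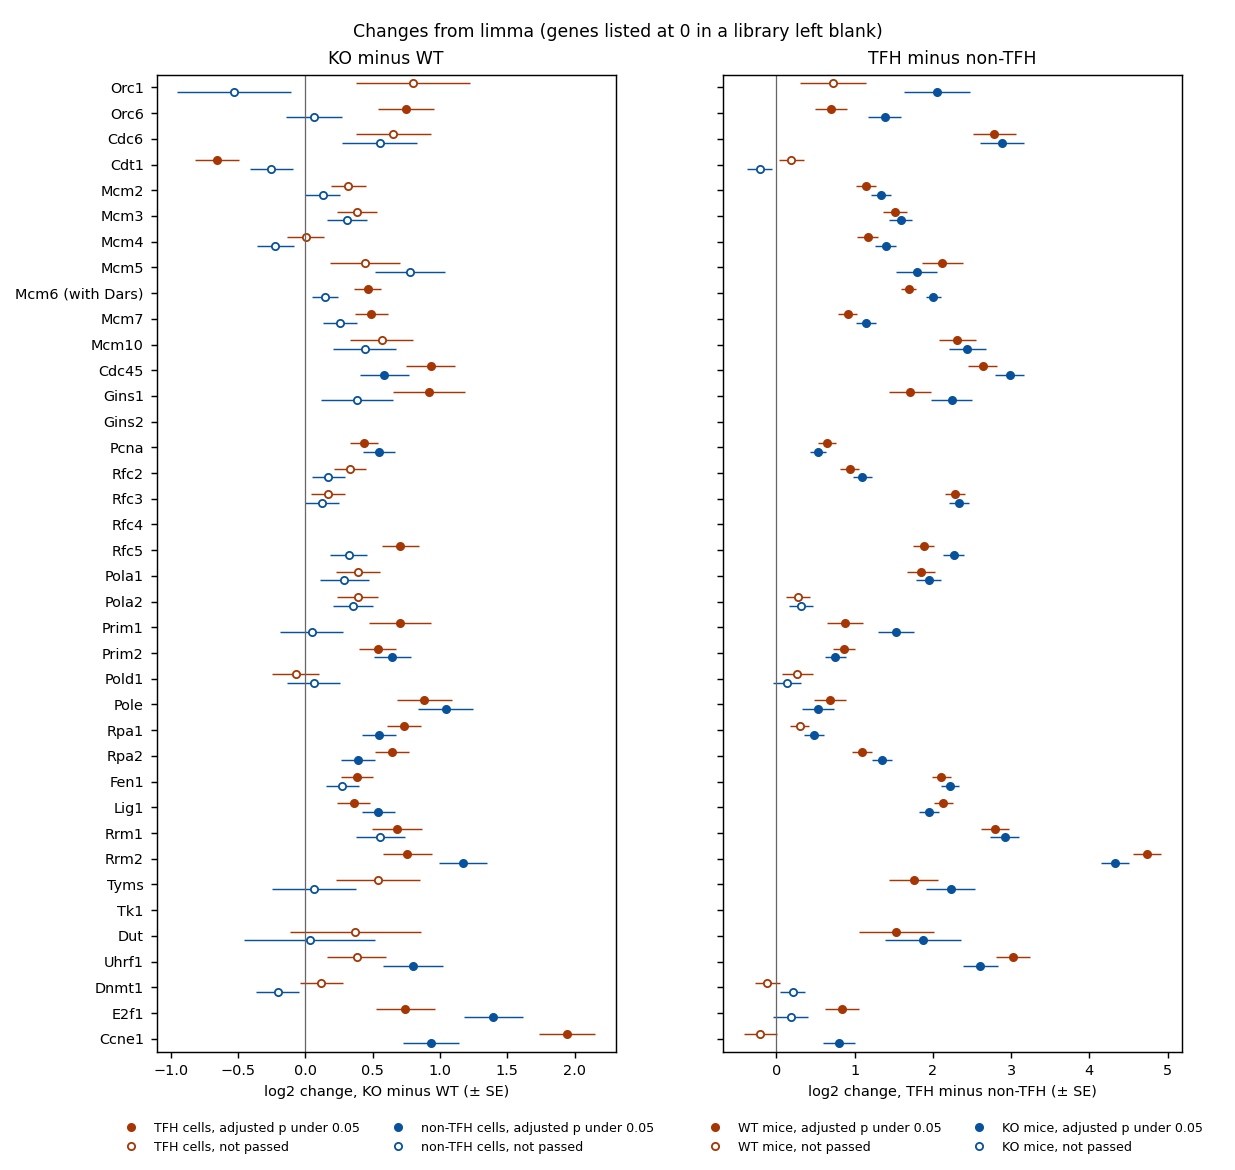
Log2 changes (points) with their SE (bars) for 35 of the 38 tested members, KO minus WT on the left in TFH and non-TFH cells and TFH minus non-TFH on the right in WT and KO mice. Filled points passed an adjusted p of 0.05, open points did not, and Gins2, Rfc4 and Tk1 are left blank because some libraries list them at 0. On the left most points lie right of 0, and Cdt1 lies left of it in TFH cells. On the right Rrm2 stands farthest from 0.

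Replication genes were higher in TFH than in non-TFH cells in both genotypes. In WT mice 30 of 38 members were higher in TFH cells and 0 were lower, where 67.6% of all tested features were called, 35.4% higher and 32.3% lower. In KO mice 33 members were higher and 0 were lower, where 67.2% of features were called, 33.6% in each direction. Of the 35 members with no library at 0, 28 were higher in WT mice and 30 in KO mice. No member was lower at an unadjusted limma p under 0.05 in either genotype. Quantile normalization ended the call of Pole in WT mice and those of Pcna and Rpa1 in KO mice. Median changes were 1.53 log2 in WT and 1.83 in KO mice, against 0.05 and 0.02 over all tested features. In WT mice the call of Orc6 was lost without WT non-TFH replicate 3 and that of Dut without WT TFH replicate 1 or 3 or replicate 1 or 2 of WT non-TFH cells. Both were also lost with libraries weighted. In KO mice the call of Pole was lost without WT non-TFH replicate 1, KO TFH replicate 1 or 2, or KO non-TFH replicate 1 or 3. It was also lost with a pseudocount of 0.1, with the replicate block and with the replicate block within genotype. These comparisons share libraries with those of KO and WT, and their values are not independent of them.

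**Figure D2:**
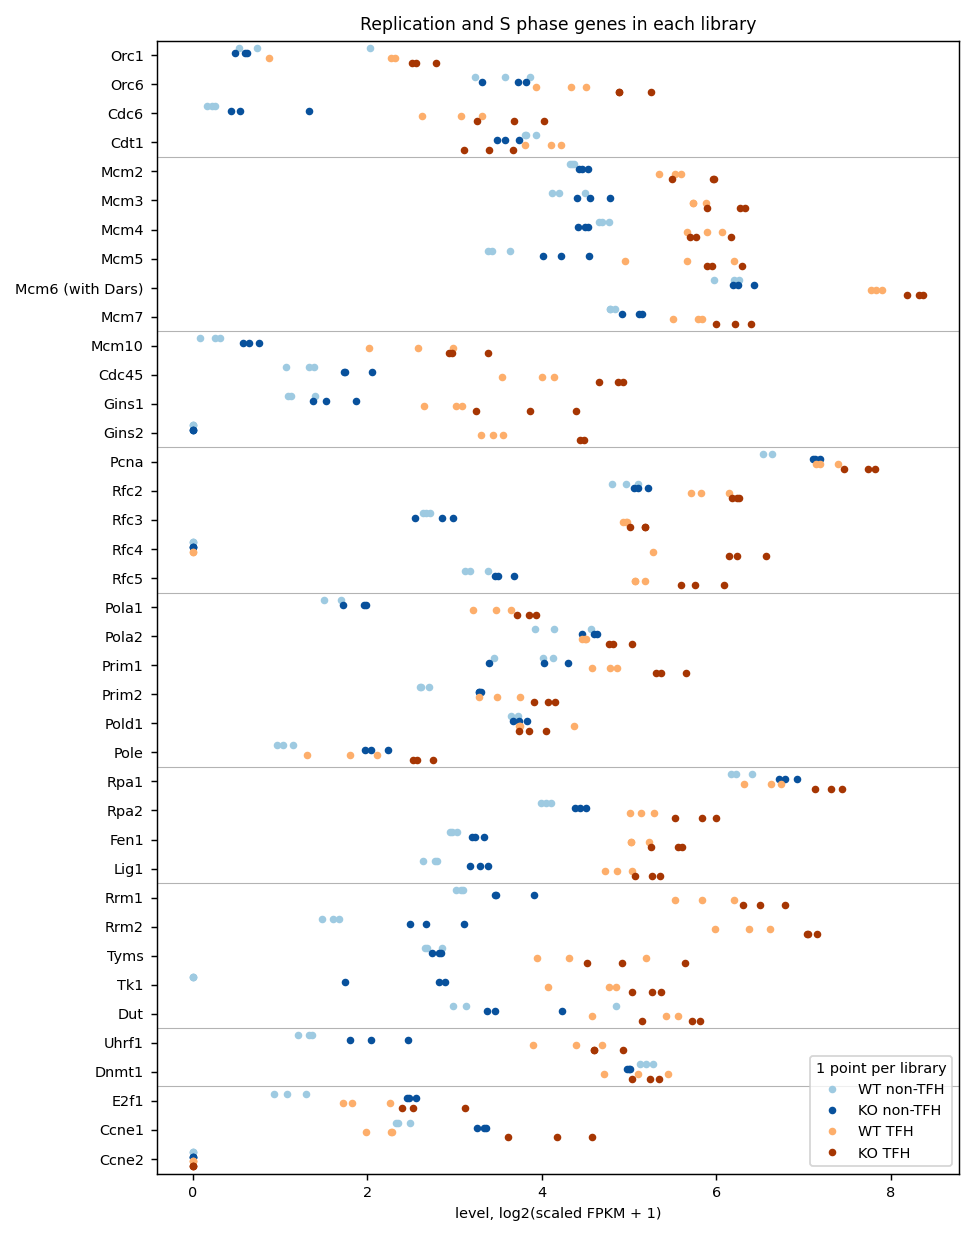
Level of each of the 39 members in each of the 12 libraries as log2(scaled FPKM + 1), 1 point per library, coloured by group, with role groups separated by lines and Mcm6 joined with Dars. The TFH libraries lie right of the non-TFH libraries for most members, while the groups of Pola2, Pold1 and Dnmt1 lie closer together. For Cdt1 the KO TFH libraries lie left of all WT libraries and overlap the KO non-TFH libraries.

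In origin recognition and licensing 1 member rose and 1 fell in KO TFH cells, and 0 of 4 were called in non-TFH cells. Beside these counts stand 15.9% of all tested features higher and 15.1% lower in TFH cells, and 11.8% and 8.58% in non-TFH cells. Orc6, a subunit of the origin recognition complex, was the most abundant of the 4. It stood at 13.6, 10.9 and 8.40 scaled FPKM in WT non-TFH libraries, at 12.2, 13.1 and 8.97 in KO non-TFH libraries, at 21.8, 14.2 and 19.1 in WT TFH libraries and at 37.1, 28.5 and 28.5 in KO TFH libraries. All 3 KO TFH libraries lay above all others, and both non-TFH groups overlapped. Orc6 rose by 0.75 ± 0.21 log2 in KO TFH cells (limma adjusted p = 0.018). The call was lost with libraries weighted and without WT TFH replicate 2 or KO TFH replicate 1. In non-TFH cells the change of Orc6 was 0.06 ± 0.21 (adjusted p = 0.89).

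Cdt1, which brings the MCM ring to the origin and is degraded once S phase begins, was singled out after its values were seen because it went the other way. It stood at 13.1, 14.3 and 13.0 scaled FPKM in WT non-TFH libraries, at 10.2, 12.3 and 11.0 in KO non-TFH libraries, at 17.6, 16.2 and 13.0 in WT TFH libraries and at 7.62, 9.5 and 11.7 in KO TFH libraries. Every KO library lay below every WT library of the same cell type. Cdt1 fell by 0.65 ± 0.16 log2 in KO TFH cells (limma adjusted p = 0.0094) and its change of -0.25 ± 0.16 in non-TFH cells did not pass (adjusted p = 0.34). With only both TFH groups in the fit the adjusted p in TFH cells was 0.067. Between TFH and non-TFH cells Cdt1 was not called, at 0.19 ± 0.16 in WT and -0.21 ± 0.16 in KO mice. Orc1, the largest subunit of the origin complex, and Cdc6, the ATPase that completes loading, were not called in either comparison of KO with WT. For Cdc6 the TFH minus non-TFH difference was 2.79 ± 0.28 log2 (WT) and 2.89 ± 0.28 (KO), from group means of 0.160 and 0.772 to 7.16 and 11.9 scaled FPKM.

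The MCM2-7 ring is the core of the replicative helicase. Its 5 subunits with their own feature were 0.91 to 2.12 log2 higher in TFH cells of WT mice and 1.14 to 1.79 higher in KO mice. The joint entry of Mcm6 and Dars was 1.69 log2 higher in WT and 2.01 in KO mice. All 6 entries were called higher in each, where 35.4% and 33.6% of all tested features were. Between genotypes 2 of 6 entries rose in TFH cells and 0 of 6 in non-TFH cells, beside 15.9% and 11.8% of all tested features. The joint entry of Mcm6 and Dars stood at 72.9, 75.4 and 61.7 scaled FPKM in WT non-TFH libraries, at 72.2, 85.2 and 74.9 in KO non-TFH libraries, at 226, 218 and 238 in WT TFH libraries and at 330, 291 and 321 in KO TFH libraries. All KO TFH libraries lay above all others, with a change of 0.46 ± 0.10 log2 (limma adjusted p = 0.0039), and both non-TFH groups overlapped. Where the tables gave Mcm6 its own value, it was 150, 131 and 166 in WT TFH libraries and 184 and 202 in KO TFH replicates 2 and 3. Dars, an aminoacyl-tRNA synthetase that is no replication gene, was 76.4, 87.0 and 72.1 in the same WT TFH libraries and 107 and 118 in the same KO TFH libraries, so both genes of the joint entry were higher and the call is not of Mcm6 alone. It was lost with quantile normalization and with libraries weighted.

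Mcm7 was the other subunit that rose in KO TFH cells, by 0.49 ± 0.12 log2 (limma adjusted p = 0.011), from 51.7 ± 6.36 to 73.2 ± 10.2 scaled FPKM. Mcm4, named after its values were seen as the smallest change of the ring, stood at 66.1, 49.7 and 58.4 in WT TFH libraries and at 71.1, 50.8 and 53.6 in KO TFH libraries. These groups overlapped throughout, and the change was 0.00 ± 0.14 log2 (adjusted p = 0.99). Mcm2, Mcm3 and Mcm5 changed by 0.32, 0.38 and 0.44 log2 without passing the test. Per length, the 5 subunits with their own feature were closer to each other in TFH than in non-TFH cells. The highest group mean was 2.64 times the lowest in WT and 1.77 times in KO non-TFH cells, and 1.32 and 1.31 times in WT and KO TFH cells. Mcm5 was the lowest subunit in both non-TFH groups, at 10.2 ± 1.09 in WT and 18.3 ± 3.65 in KO libraries.

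In helicase activation 3 of 4 members rose in KO TFH cells, by 0.92 to 1.03 log2, and 1 of 4 rose in KO non-TFH cells. The shares of all tested features that rose were 15.9% and 11.8%. Cdc45, which joins the ring to form the active helicase, stood at 1.61, 1.09 and 1.5 scaled FPKM in WT non-TFH libraries, at 2.32, 3.15 and 2.34 in KO non-TFH libraries, at 15.0, 10.6 and 16.6 in WT TFH libraries and at 28.3, 24.2 and 29.6 in KO TFH libraries. None of the 4 groups overlapped another. Cdc45 (chromosome 16, 18780447 to 18811972, mm10) rose by 0.93 ± 0.18 log2 in KO TFH cells (limma adjusted p = 0.0025), 1.95 times on group means, and by 0.59 ± 0.18 in KO non-TFH cells (adjusted p = 0.042). The non-TFH call was lost without any 1 of the 6 non-TFH libraries, and in 11 of 21 alternatives in all.

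Gins1, a subunit of the GINS complex, stood at 1.19, 1.13 and 1.64 scaled FPKM in WT non-TFH libraries, at 1.87, 2.66 and 1.59 in KO non-TFH libraries, at 7.06, 7.51 and 5.26 in WT TFH libraries and at 19.9, 8.49 and 13.5 in KO TFH libraries. These KO TFH libraries were spread widely and all lay above the WT TFH libraries, with a change of 0.92 ± 0.27 log2 (limma adjusted p = 0.021) that was lost without WT TFH replicate 3, KO TFH replicate 1 or KO TFH replicate 3. Gins2, a further GINS subunit, was listed at 0 in all 6 non-TFH libraries, at 9.88, 8.85 and 10.7 in WT TFH libraries and at 20.6 and 21.4 in KO TFH replicates 1 and 3, with replicate 2 merged with a neighbour and left missing. Both KO values lay above all 3 WT values, a change of 1.03 ± 0.16 (adjusted p = 0.00088). Whether the entries at 0 are measurements or failed estimates is not shown by the tables, and no fold is given against them. Mcm10, which helps start the helicase, had TFH minus non-TFH differences of 2.31 ± 0.23 (WT) and 2.44 ± 0.23 (KO), and its change of 0.57 ± 0.23 in KO TFH cells did not pass (adjusted p = 0.089).

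The clamp Pcna, which tethers polymerases to DNA, was among the most abundant members and rose in both cell types. It stood at 92.1 and 99.0 scaled FPKM in WT non-TFH replicates 1 and 2, with replicate 3 merged with a neighbour and left missing. It stood at 145, 139 and 137 in KO non-TFH libraries, at 144, 167 and 140 in WT TFH libraries and at 213, 176 and 224 in KO TFH libraries. All KO values lay above the WT values in each cell type, and KO non-TFH libraries overlapped WT TFH libraries. The changes were 0.44 ± 0.10 log2 in TFH cells (limma adjusted p = 0.0094) and 0.55 ± 0.12 in non-TFH cells (adjusted p = 0.0068). The first was lost with quantile normalization and the second without WT non-TFH replicate 1, which leaves 1 WT value.

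Of the loader subunits, which open the clamp ring and set it on primed DNA, Rfc5 rose in KO TFH cells by 0.70 ± 0.14 log2 (limma adjusted p = 0.0023), from 33.5 ± 1.61 to 55.8 ± 10.3 scaled FPKM. Rfc2 and Rfc3 changed by 0.33 ± 0.12 and 0.17 ± 0.13 and were not called. Rfc4 was listed at 0 in all 6 non-TFH libraries and in WT TFH replicates 2 and 3, at 37.7 in WT TFH replicate 1 and at 93.8, 74.3 and 69.9 in the KO TFH libraries. Its fitted change between KO and WT TFH cells, 4.56 ± 1.16 log2 (limma adjusted p = 0.015), rests on the 2 WT entries of 0 and did not pass with only both TFH groups in the fit (adjusted p = 0.122). With entries of 0 set to missing the difference was 1.04 log2 from a single WT TFH library, which gives no spread of its own. RFC2, RFC3 and RFC5 form part of a single complex, and their highest group mean was 5.61 and 5.67 times the lowest in WT and KO non-TFH cells and 1.96 and 2.17 times in WT and KO TFH cells.

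Among polymerases and primase, which start and extend the new strands, 3 of 6 rose in TFH cells and 2 of 6 in non-TFH cells. Of all tested features 15.9% and 11.8% rose. Prim1, the catalytic primase subunit, stood at 16.4, 9.95 and 15.1 scaled FPKM in WT non-TFH libraries, at 18.7, 9.54 and 15.3 in KO non-TFH libraries, at 22.8, 26.5 and 28.1 in WT TFH libraries and at 49.4, 38.6 and 40.1 in KO TFH libraries. KO TFH libraries lay above all others and both non-TFH groups covered nearly the same range. The change in TFH cells was 0.70 ± 0.23 log2 (limma adjusted p = 0.038), a call lost in 10 of 21 alternatives, among them without any 1 of the 6 TFH libraries and without KO non-TFH replicate 3.

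Pole, the catalytic subunit of polymerase epsilon, stood at 1.05, 0.941 and 1.21 scaled FPKM in WT non-TFH libraries, at 2.92, 3.73 and 3.12 in KO non-TFH libraries, at 1.47, 2.47 and 3.30 in WT TFH libraries and at 5.75, 4.93 and 4.75 in KO TFH libraries. In each cell type the KO libraries lay above the WT libraries, and KO non-TFH libraries overlapped WT TFH libraries. The change was 0.88 ± 0.20 log2 in TFH cells (limma adjusted p = 0.0064) and 1.04 ± 0.20 in non-TFH cells (adjusted p = 0.0032), and the first did not pass with only both TFH groups in the fit (adjusted p = 0.056). Prim2, the other primase subunit, rose by 0.54 ± 0.14 and 0.65 ± 0.14 in the same order. Pold1, the catalytic subunit of polymerase delta, and Pola2, a subunit of polymerase alpha, were called in none of the 4 comparisons between groups. Pola1, the catalytic subunit of polymerase alpha, was 1.85 ± 0.18 log2 higher in WT TFH than in WT non-TFH cells, while Pola2 of the same complex differed by 0.28 ± 0.15.

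All 4 members of single-strand binding and Okazaki fragment joining rose in KO TFH cells, where 15.9% of all tested features were called higher. Both tested members of G1/S control rose there too. Rpa1, the large subunit of the single-strand binding protein RPA, stood at 70.7, 74.0 and 83.7 scaled FPKM in WT non-TFH libraries, at 105, 110 and 121 in KO non-TFH libraries, at 97.7, 78.6 and 106 in WT TFH libraries and at 158, 139 and 174 in KO TFH libraries. All KO libraries lay above the WT libraries of the same cell type, while WT TFH libraries overlapped both non-TFH groups. Rpa1 (chromosome 11, 75300259 to 75348383, mm10) rose by 0.73 ± 0.13 log2 in TFH cells (limma adjusted p = 0.001) and by 0.55 ± 0.13 in non-TFH cells (adjusted p = 0.0086). Rpa2, its partner, rose by 0.64 ± 0.13 and 0.39 ± 0.13, the second of which was lost in 10 of 21 alternatives, among them without any 1 of the 6 non-TFH libraries.

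Fen1, the nuclease that trims Okazaki fragments, and Lig1, the ligase that joins them, rose by 0.38 ± 0.12 and 0.36 ± 0.12 log2 in KO TFH cells (limma adjusted p = 0.031 and 0.048). The Fen1 call was lost in 7 of 21 alternatives, among them without KO TFH replicate 1 or 3 or WT TFH replicate 2 or 3. The Lig1 call was lost in 16 of 21, among them without each of these and without any 1 of the 6 non-TFH libraries. Both were also lost with quantile normalization, with libraries weighted and with only both TFH groups in the fit. In non-TFH cells Lig1 rose by 0.54 ± 0.12 (adjusted p = 0.0087), from 5.67 ± 0.375 to 8.72 ± 0.699 scaled FPKM. Both genes were 1.95 to 2.22 log2 higher in TFH than in non-TFH cells across both genotypes, whereas Rpa1 was 0.30 ± 0.13 higher in WT mice, which did not pass (adjusted p = 0.054), and 0.48 ± 0.13 in KO mice. With quantile normalization the value in KO mice was -0.00412 log2.

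In nucleotide supply all 5 members were higher in TFH cells of both genotypes, beside 35.4% of all tested features in WT and 33.6% in KO mice. Rrm2, the small subunit of ribonucleotide reductase, which is made in S phase and limits deoxynucleotide synthesis, stood at 2.05, 1.80 and 2.18 scaled FPKM in WT non-TFH libraries, at 5.38, 7.62 and 4.60 in KO non-TFH libraries, at 82.3, 62.2 and 97.4 in WT TFH libraries and at 142, 132 and 131 in KO TFH libraries. None of the 4 groups overlapped another, with WT below KO libraries within a cell type and non-TFH below TFH libraries. Rrm2 (chromosome 12, 24708254 to 24714146, mm10) was 4.74 ± 0.18 log2 higher in TFH cells of WT mice, 40.2 times on group means, and 4.33 ± 0.18 higher in KO mice, 23.0 times. It rose in KO libraries by 0.76 ± 0.18 in TFH cells (limma adjusted p = 0.0077) and by 1.17 ± 0.18 in non-TFH cells (adjusted p = 0.00063), and the first was at an adjusted p of 0.0526 with libraries weighted.

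Rrm1, the large subunit of the same enzyme, stood at 7.54, 7.39 and 7.06 scaled FPKM in WT non-TFH libraries, at 10.1, 14.0 and 10.0 in KO non-TFH libraries, at 55.9, 45.1 and 72.4 in WT TFH libraries and at 109, 78.1 and 89.6 in KO TFH libraries. Here too the 4 groups were separate, and Rrm1 rose by 0.68 ± 0.18 log2 in TFH cells (limma adjusted p = 0.016). The call was lost with libraries weighted and without WT TFH replicate 2 or KO TFH replicate 1. Per length, Rrm1 was 3.65 and 1.94 times Rrm2 in WT and KO non-TFH cells, while Rrm2 was 1.39 and 1.46 times Rrm1 in WT and KO TFH cells. Tk1, the thymidine kinase of the salvage route, was listed at 0 in all 3 WT non-TFH libraries and at 6.05, 6.39 and 2.36 in KO non-TFH libraries. In TFH cells it stood at 28.0, 15.8 and 26.3 in WT and 37.3, 31.9 and 40.2 in KO libraries, groups that did not overlap but whose change of 0.65 ± 0.29 did not pass (adjusted p = 0.11). The fitted change in non-TFH cells, 2.48 ± 0.29 (adjusted p = 7.6e-05), rests on the 3 entries of 0. Tyms, thymidylate synthase, and Dut, which breaks down dUTP, were not called between genotypes and were higher in TFH cells in both genotypes.

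Maintenance methylation, by which UHRF1 reads half-methylated DNA behind the fork and brings in the methyltransferase DNMT1, gave a contrast between its members. Uhrf1 stood at 1.58, 1.30 and 1.52 scaled FPKM in WT non-TFH libraries, at 3.12, 4.50 and 2.47 in KO non-TFH libraries, at 24.7, 13.9 and 19.98 in WT TFH libraries and at 29.4, 23.1 and 23.3 in KO TFH libraries. Non-TFH groups did not overlap and TFH groups did, with changes of 0.80 ± 0.22 log2 (limma adjusted p = 0.023) and 0.38 ± 0.22 (adjusted p = 0.21). The non-TFH call was lost without any 1 of the 3 WT non-TFH libraries or KO non-TFH replicate 1 or 2. Quantile normalization ended it too. Dnmt1 stood at 34.0, 37.8 and 35.6 in WT non-TFH libraries, at 30.5, 30.9 and 31.3 in KO non-TFH libraries, at 42.7, 25.1 and 33.2 in WT TFH libraries and at 39.4, 31.7 and 36.8 in KO TFH libraries. Both TFH groups overlapped, and the KO non-TFH libraries lay below the WT non-TFH and the KO TFH libraries. Dnmt1 was called in none of the 4 comparisons, and it was called lower in KO non-TFH cells with only both non-TFH groups in the fit. On group means, the level of Uhrf1 in WT TFH cells was 13.3 times that in WT non-TFH cells, and that of Dnmt1 was 0.94 times.

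**Figure D3:**
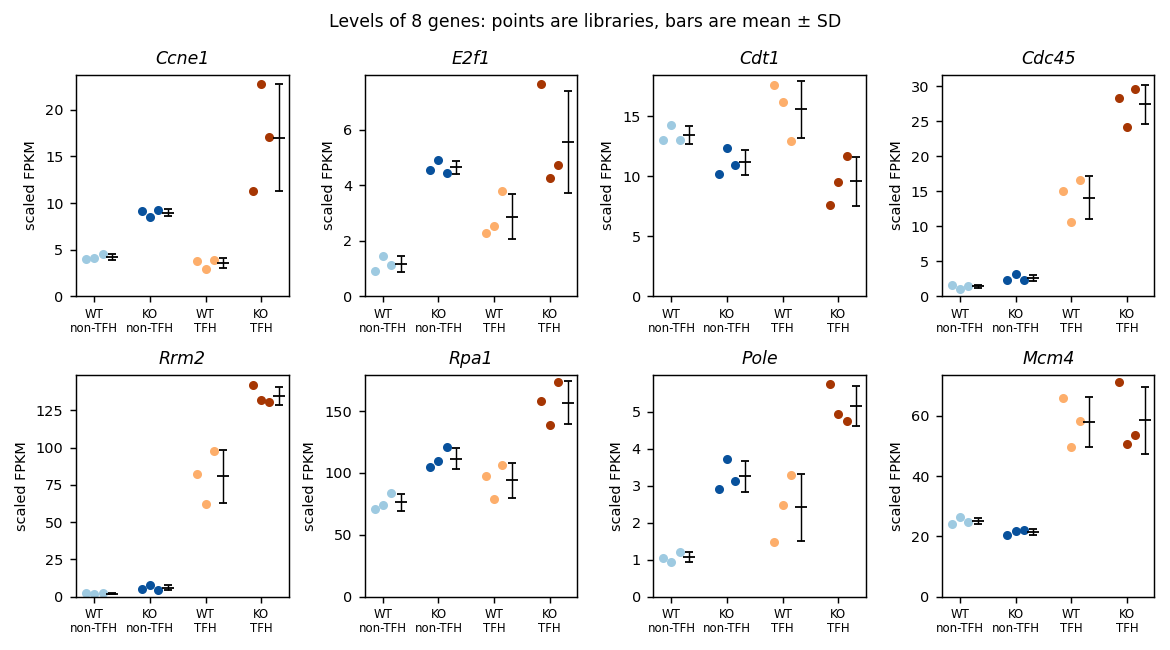
Scaled FPKM of Ccne1, E2f1, Cdt1, Cdc45, Rrm2, Rpa1, Pole and Mcm4 in the 12 libraries (points) with the mean and SD of each group of 3 (bars). Cdc45 and Rrm2 step up across all 4 groups, Ccne1 and E2f1 separate KO from WT in both cell types, Cdt1 is lower in KO libraries, and Mcm4 differs between cell types.

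G1/S control held the largest change between genotypes among members with no library at 0, and both tested members rose in both cell types. Over all tested features 15.9% rose in TFH and 11.8% in non-TFH cells. Ccne1, cyclin E1, which drives entry into S phase, stood at 4.0, 4.11 and 4.59 scaled FPKM in WT non-TFH libraries, at 9.12, 8.53 and 9.29 in KO non-TFH libraries, at 3.81, 2.96 and 3.88 in WT TFH libraries and at 11.2, 22.8 and 17.1 in KO TFH libraries. Every KO library lay above every WT library, whichever the cell type. Ccne1 (chromosome 7, 38097984 to 38107490, GRCm38.p6) rose by 1.94 ± 0.21 log2 in TFH cells (limma adjusted p = 4e-05), 4.80 times on group means, and by 0.93 ± 0.21 in non-TFH cells (adjusted p = 0.0075), 2.12 times. Unlike most members, it was not higher in TFH than in non-TFH cells of WT mice, at -0.21 ± 0.21 (adjusted p = 0.40), and was higher by 0.80 ± 0.21 in KO mice (adjusted p = 0.0049).

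E2f1, the E2F activator that drives many of these genes, stood at 0.896, 1.45 and 1.12 scaled FPKM in WT non-TFH libraries, at 4.56, 4.90 and 4.46 in KO non-TFH libraries, at 2.29, 2.54 and 3.79 in WT TFH libraries and at 7.65, 4.26 and 4.72 in KO TFH libraries. Every KO library lay above every WT library, and both KO groups overlapped. E2f1 rose by 1.4 ± 0.22 log2 in non-TFH cells (limma adjusted p = 0.00071), 4.02 times on group means, and by 0.74 ± 0.22 in TFH cells (adjusted p = 0.023). The TFH call did not pass without KO TFH replicate 1, WT TFH replicate 1 or WT TFH replicate 2. Nor did it pass with libraries weighted or with only both TFH groups in the fit. Between KO and WT TFH cells the 15 members with an E2F string in the promoter window had a median change of 0.39 log2 and 6 rose. The 17 without either string had a median of 0.65 and 10 rose, beside 15.9% of all tested features. In non-TFH cells these medians were 0.15 with and 0.44 without a match. For TFH against non-TFH cells they were 1.69 with and 1.535 without in WT mice, and 1.95 and 1.87 in KO mice. Only these 2 strings were searched, so members without a match are not shown to lack an E2F site. Neither string measures E2F binding, and the part of E2F factors in these changes was not tested.

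The difference between the change in TFH cells and that in non-TFH cells was called for 3 of 38 members, 2 higher and 1 lower, against 17.5% of all tested features called, 6.91% higher and 10.6% lower. Ccne1 rose more in TFH cells, by 1.01 ± 0.30 log2 (limma adjusted p = 0.036), and this call was lost in 12 of 21 alternatives, in which its adjusted p ranged from 0.00335 to 0.0821. It was lost without any 1 of the 6 non-TFH libraries, WT TFH replicate 2, KO TFH replicate 2 or KO TFH replicate 3. Without any 1 of those 9 libraries the count of members that rose more in TFH cells was 1, without WT TFH replicate 1 it was 3, and the count of members that rose less was 2 without KO TFH replicate 1. Gins2 (1.03 ± 0.22, adjusted p = 0.0084, not passed with a pseudocount of 0.1 or the replicate block within genotype) and Tk1 (-1.83 ± 0.41, adjusted p = 0.0093) rest on groups listed at 0. For the other 35 members no difference between cell types passed, which does not show that the changes were alike.

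Genes around the set were followed in 5 further lists, counted by features of their own. Beside their counts in TFH cells stand 15.9% of all tested features higher and 15.1% lower. In TFH cells 8 of 28 other fork and origin genes rose and 0 fell, with Clspn (0.90 ± 0.32 log2), which carries the checkpoint signal at forks, and Dscc1 (0.83 ± 0.22), of a clamp loader used in cohesion, as the largest. Of 23 genes for E2F, RB, cyclin and inhibitor control, 9 rose and 2 fell. Cdkn1a, which encodes the kinase inhibitor p21 and is known to restrain cyclin E and its kinase, rose by 3.53 ± 0.29 (limma adjusted p = 6.6e-06), from a mean of 4.69 to 67.0 scaled FPKM, and Ccna2, the S phase and G2 cyclin A2, rose by 1.44 ± 0.28. Rbl2, the RB relative p130 of resting cells, fell by 0.72 ± 0.18, and Cdkn1b, the inhibitor p27, fell by 0.64 ± 0.20. Of 14 other deoxynucleotide and folate genes 3 rose and 2 fell, with Shmt1 (0.75 ± 0.19) and Shmt2 (0.48 ± 0.16), which feed one-carbon units, leading the former, with Shmt1 listed at 0 in all non-TFH libraries, and the salvage kinases Dck (-1.17 ± 0.11) and Tk2 (-0.97 ± 0.11) as the latter.

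Of 18 genes for chromatin assembly and cohesion behind the fork, 6 rose and 0 fell, led by Chaf1a (1.34 ± 0.28 log2), the large subunit of the histone chaperone CAF-1, and Exo1 (0.91 ± 0.32), a repair nuclease. Of 12 markers of dividing cells outside S phase, 8 rose and 0 fell with a median of 1.03 log2, led by Cdk1 (1.72 ± 0.43) and Ccnb1 (1.27 ± 0.24), the kinase and cyclin of mitotic entry. Their summed level was 243 to 385 scaled FPKM in WT TFH, 598 to 718 in KO TFH, 24.9 to 30.5 in WT non-TFH and 39.5 to 68.3 in KO non-TFH libraries, so the 4 groups did not overlap. In non-TFH cells the counts were 3 that rose and 3 that fell of 28, 4 and 3 of 23, 1 and 5 of 14, 3 and 1 of 18, and 7 and 0 of 12, in the order of the lists above, beside 11.8% higher and 8.58% lower over all tested features.

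Markers of other cell types moved with the comparisons. Beside their counts stand 15.1% of all tested features lower in KO TFH and 11.8% higher in KO non-TFH cells. For TFH against non-TFH cells these shares were 35.4% higher and 32.3% lower in WT mice and 33.6% each way in KO mice. All 9 measured macrophage markers fell in KO TFH libraries, and their summed level was 1154 to 2057 scaled FPKM in WT TFH, 187 to 250 in KO TFH, 13.0 to 22.2 in WT non-TFH and 27.2 to 39.5 in KO non-TFH libraries. Of 7 tested B cell markers 3 fell, and the sum of the 9 measured ones was 75.4 to 78.7 in WT TFH, 40.2 to 45.1 in KO TFH and 1.37 to 3.63 in non-TFH libraries. In KO non-TFH cells 4 of 9 macrophage, 2 of 4 plasma cell and 2 of 4 neutrophil markers rose. In TFH against non-TFH cells of WT mice all 9 macrophage and all 7 tested B cell markers were higher, with median differences of 5.49 and 3.04 log2, and all 4 neutrophil markers were lower. In KO mice 8 of 9 macrophage and 7 of 7 B cell markers were higher, with medians of 2.02 and 1.71 log2, and 3 of 4 neutrophil markers were lower. The part of these cells in the members' changes was not tested.

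**Figure D4:**
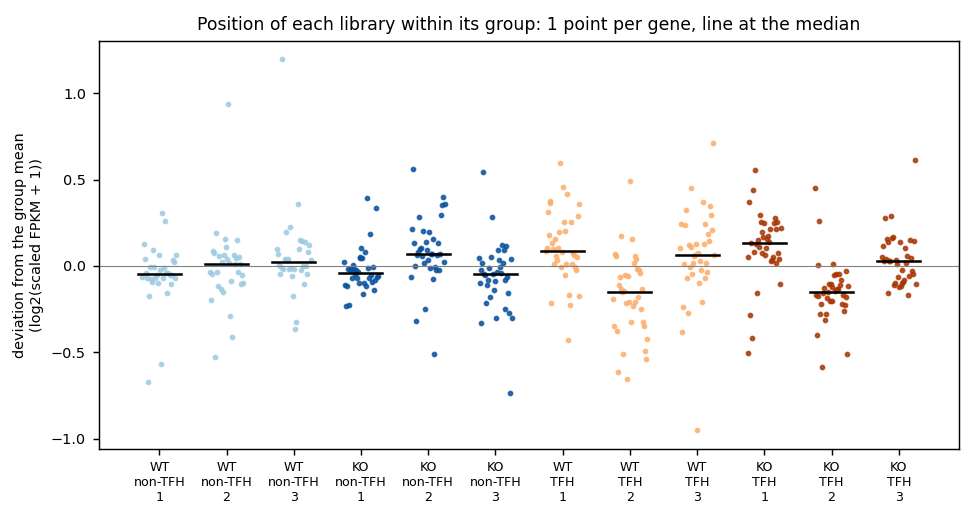
Deviation of each member from its group mean in log2(scaled FPKM + 1), 1 point per gene and library, with the median as a line. WT TFH replicate 2 and KO TFH replicate 2 lie below their groups with medians of -0.15 each, and KO TFH replicate 1 lies above its group.

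Libraries of a group differed in how many members they ranked highest or lowest for. WT TFH replicate 2 was the lowest library of its group for 25 of 37 members and KO TFH replicate 2 for 27 of 37, both with a median deviation of -0.15 log2, while KO TFH replicate 1 was the highest of its group for 23 of 37. KO non-TFH replicate 2 was the highest of its group for 21 of 36. In WT non-TFH cells, over 32 members, replicates 1, 2 and 3 were highest for 7, 14 and 11. All features were not examined in this way. The coefficient of variation between libraries had a median of 9.91% and 9.61% over the members in WT and KO non-TFH cells and of 17.8% and 14.0% in WT and KO TFH cells. The authors' confidence bounds for single libraries had median half-widths of 16.0%, 14.1%, 9.02% and 7.33% of the level in the same order. Such bounds are wider than 1 SD and cover the estimate within a library only, so both measures are given side by side without comparison.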

How the data were processed

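Each of the 12 libraries (4 groups of 3) had 1 gene tracking table of FPKM with confidence bounds, deposited by the authors as Cufflinks wrote it, per the file headers. Per the submitters' processing notes, reads were handled with FastQC and cutadapt, TopHat (also TopHat2), Bowtie (also Bowtie2), Cufflinks, and Cuffdiff on mm10. Tool versions were not given in the sources used here. Python 3.11.15 with numpy 2.4.6 and pandas 2.3.3 read the tables. Symbols merged with a neighbour in too many libraries became joint features (790 of 23268), and other merged values were left missing. FPKM were scaled by the median ratio over 7164 features (factors 0.852 to 1.13). Depth (11.9 to 15.5 M fragments) was estimated at unnamed loci longer than 1500 bp, and no counting interval was drawn from it.

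log2(scaled FPKM + 1) of 11120 features (at least 1 FPKM in at least 3 libraries) was fitted with limma 3.58.1 in R 4.3.3, with a mean per group over all 12 libraries, a variance trend and robust moderation, and Benjamini-Hochberg adjustment to 0.05. The fit was tested on simulated data. Members are named by role, with values in every library for the most abundant member of each role and the 5 largest called changes of each comparison, and others singled out are said to be chosen after their values were seen. Companion genes named are the 2 largest called changes in each direction per list in TFH cells. The members, lists and tests were chosen with earlier results of these data known. Alternatives were a pseudocount of 0.1, no filter, a filter of 5 FPKM, no scaling, quantile normalization, a replicate block, array weights, only the groups compared and leaving out each library. Setting values of 0 to missing was added after seeing the data. Figures were drawn with matplotlib 3.10.9, and promoter sequences came from RefSeq (GRCm38.p6).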

Additional observations from a re-analysis of the deposited data

Results flagged for a closer look

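For 3 members the change between KO and WT libraries in TFH cells differed from that in non-TFH cells by a test of the difference itself (limma, all 12 libraries, adjusted over all tested features). Ccne1 rose by 1.01 log2 more in TFH cells (adjusted p = 0.036), and in the alternatives this adjusted p ran from 0.00335 to 0.0821. Gins2 rose by 1.03 log2 more in TFH cells (adjusted p = 0.0084), where all 6 non-TFH libraries are listed at 0. This call was lost with a pseudocount of 0.1 and with the replicate block within genotype, and its adjusted p over the alternatives ran from 0.00372 to 0.138. Tk1 had a difference of -1.83 log2 (adjusted p = 0.0093), where the 3 WT non-TFH libraries are listed at 0 and the KO non-TFH libraries at 2.36 to 6.39 scaled FPKM. With values of 0 set to missing, neither Gins2 nor Tk1 could be tested.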

How the results depend on the processing

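Counts of members called higher in KO TFH cells (20) were 11 with array weights, 12 with only both TFH groups in the fit, and 13 to 21 when leaving out 1 library. Those called lower (1) were 0 with only both TFH groups and 1 without any single library. In non-TFH cells the 12 called higher were 19 with array weights and 8 to 14 when leaving out 1 library, and the 0 called lower were 2 with only both non-TFH groups. Counts of members higher in TFH than in non-TFH libraries were 29 to 31 in WT mice and 32 to 34 in KO mice when leaving out 1 library. For the difference between cell types, the 2 called higher were 1 with a pseudocount of 0.1, 1 without a filter, 1 with the replicate block, 0 with the replicate block within genotype, 1 with values of 0 set to missing, and 1 to 3 when leaving out 1 library, and the 1 called lower was 0 with values of 0 set to missing and 1 to 2 when leaving out 1 library. Rpa1 in TFH against non-TFH cells of KO mice was 0.48 log2 and turned to -0.00412 with quantile normalization, and no other called member reversed in any alternative. Shares of all tested features called were not counted in the alternatives, so a general shift in calls cannot be told from one of the members. The causes were not tested.

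Whether samples of the same number belong together is not stated in the labels, and the main fit did not pair them. For KO against WT, deviations of same-numbered samples correlated at 0.0108 to 0.057 in TFH and -0.000895 to 0.059 in non-TFH cells. Between TFH and non-TFH libraries of the same number the correlations were -0.0321 to 0.000713 in WT and -0.0235 to 0.0345 in KO mice. Such values cannot show whether these samples came from the same mouse, since the deviations also hold every other difference between libraries. With the replicate block 19 members were called higher and 1 lower in KO TFH cells, and 10 and 0 in KO non-TFH cells. The comparison of TFH with non-TFH libraries gave 31 higher in WT and 32 in KO mice with the block. Deposited FPKM hold no counts, so calls at low levels cannot be weighed by depth.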
